A study of Mus musculus with 17 samples.

Results

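The 10 genes below encode replacement histones and were followed through the first steps of mouse male meiosis, in germ cells with and without the RNA acetyltransferase gene *Nat10*. Replacement histones are the variants whose genes lie outside the replication-dependent histone clusters. The members were the rows of the deposited gene table named *H2afx*, *H2afy*, *H2afy2*, *H2afv*, *H2afz*, *H2afj*, *H3f3a*, *H3f3b*, *H1f0* and *H1fx*, 10 of 23282 rows. All 10 were found, and all 10 passed the filter on low values in every comparison. The cells came from mice labelled C57BL/6, kept on a C57BL/6J background per the study's methods, and were sorted by FACS after Hoechst and propidium iodide staining. The 3 sorted stages were SPG (spermatogonia), PreL (spermatocytes about to enter meiosis, the pre-leptotene stage) and LZ (leptotene and zygotene spermatocytes, in early prophase). The groups were WT and *Nat10*-SKO (*Nat10* fl/-;*Stra8*-GFPCre, with a floxed and a deleted *Nat10* allele and a Cre knock-in at *Stra8* that acts in germ cells before meiotic entry and removes exons 4 and 5). The 17 libraries were 3 WT and 3 SKO of SPG, 3 WT and 3 SKO of PreL, and 2 WT and 3 SKO of LZ. The study calls the replicates biological. The age of the mice of these libraries, the genotype of the controls beyond WT, and whether each replicate was a separate mouse are not given in the sources used here, and the p-values measure the spread between these libraries.

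Nucleosomes are rebuilt throughout spermatogenesis. The bulk histones are made in S phase from clustered genes whose transcripts end in a stem-loop and carry no poly(A) tail. Replacement histones are made throughout the cell cycle, most of them from polyadenylated transcripts. Among them, H3.3 is placed at transcribed genes by HIRA and at heterochromatin by DAXX and ATRX, H2A.Z is exchanged into promoter nucleosomes by the SRCAP and p400 complexes, and H2AX is phosphorylated at its C-terminal tail around DNA double-strand breaks, which meiotic cells make in leptotene, and later over the sex chromosomes. MacroH2A carries a large globular domain and marks silent chromatin, and the linker histones H1.0 and H1X bind the DNA between nucleosomes.

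Smart-seq2, an oligo(dT)-primed method that reads polyadenylated transcripts, was used for all libraries. Any transcript of a member without a poly(A) tail is not covered. The authors deposited HTSeq counts multiplied by 1 calibration factor per library (ERCC spike-in and input cells). All values (100%) came out as whole reads, from 5812380 to 13820953 per library, with the SKO LZ libraries the shallowest (5812380 to 7609420). Values below, called rescaled values, are the deposited values after division by a size factor per library (median of ratios, all 17 libraries together). The tests used size factors of the libraries compared and log2(rescaled value + 10), so that a fold change understates the change of a low gene and can differ slightly from the ratio of the printed values. Calls needed an adjusted p under 0.05 together with a log2 fold change past 1 in either direction. *Nat10*, the targeted gene, had a log2 fold change of -0.87 (limma adjusted p = 0.0326) in SKO SPG, not past the fold threshold, -1.29 (limma adjusted p = 0.00591) in SKO PreL and -1.47 (limma adjusted p = 0.00469) in SKO LZ, where reads of the exons that were not removed still count. On the ERCC-calibrated scale without rescaling, the median log2 fold change over all genes moved by -0.25 in SKO against WT SPG, 0.69 in PreL and -0.12 in LZ, by 0.07 and 1.73 in the WT steps from SPG to PreL and from PreL to LZ, and by 0.98 and 0.82 in the same SKO steps.

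Markers of other cells moved with the groups, and their sums are given in RPM (reads of the gene per 1000000 reads counted in the library). The 7 late spermatocyte markers summed to 234 to 332 in WT SPG, 409 to 1188 in WT PreL and 3561 to 6258 in WT LZ, against 121 to 256, 153 to 176 and 168 to 176 in SKO. Called lower in SKO were 3 of them in SPG, 6 in PreL and 7 in LZ, and called higher in WT were 4 from SPG to PreL and 7 from PreL to LZ. The 7 spermatid markers summed to 97.1 to 290.2, 539.5 to 913 and 560.4 to 957 in the same order in WT and to 3.74 to 8.48, 9.5 to 13.7 and 7.22 to 9.29 in SKO, where *Acrv1* was at 0 reads in SPG and LZ. Called lower in SKO were 5 of them in SPG, 4 in PreL and 7 in LZ, and called higher in WT were 4 from SPG to PreL and 1 from PreL to LZ.

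The 7 Leydig cell markers summed to 5.61 to 15.5 RPM in WT SPG, 6.25 to 17.7 in WT PreL and 20.9 to 57.3 in WT LZ, against 62.5 to 225, 40.4 to 459 and 79.1 to 229.7 in SKO, with 5, 6 and 5 of 7 called higher in SKO. The 7 Sertoli cell markers summed to 23.8 to 34.4, 60.5 to 69.7 and 252 to 1249 in WT and to 44.1 to 90.0, 59.2 to 884 and 405 to 565 in SKO, overlapping in PreL and LZ, with 1, 3 and 0 called higher in SKO, and 6 of the 6 tested called higher from PreL to LZ in WT. The 6 macrophage markers summed to 7.85 to 13.9, 9.24 to 22.6 and 1.01 to 6.88 in WT and to 79.6 to 143, 22.1 to 77.4 and 5.16 to 29.2 in SKO, with 5, 2 and 3 called higher in SKO. The 8 early meiotic markers, genes of the sorted cells themselves, summed to 4347 to 5081 RPM in WT LZ and 3104 to 4728 in SKO LZ, and overlapped between the genotypes, but did not in SPG (2234 to 2336 in WT and 3277 to 3592 in SKO) or PreL (3399.6 to 4100.2 in WT and 5375 to 7646 in SKO). The part of these cells in the results was not tested. In sorted bulk samples, fewer cells of a type and less RNA per cell cannot be told apart.

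*H3f3b* and *H3f3a* encode the same H3.3 protein from different transcripts. In the coding sequences of GENCODE, the encoded proteins of 136 residues differed at 0 positions, while 95 of the 408 coding bases differed (76.7% identical), with no identical run longer than 23 bases. The coding bases are only a part of the longest coding transcripts, of 2841 bases in *H3f3a* and 2514 in *H3f3b*. The first 120 coding bases are shown with the 24 differing bases in capitals, as an example of differences that let reads be assigned to 1 gene of the pair.
H3f3a: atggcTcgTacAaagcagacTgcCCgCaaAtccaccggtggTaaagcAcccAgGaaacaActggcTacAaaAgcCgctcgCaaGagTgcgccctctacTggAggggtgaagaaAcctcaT
H3f3b: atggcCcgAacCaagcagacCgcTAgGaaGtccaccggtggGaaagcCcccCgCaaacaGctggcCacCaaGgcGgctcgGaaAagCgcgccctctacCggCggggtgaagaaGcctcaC
The genes lie far apart (*H3f3a* at chromosome 1, 180800832 to 180813943, minus strand, and *H3f3b* at chromosome 11, 116021912 to 116027962, minus strand, GRCm38). Of the 100-base windows of the longest coding transcript, 26.3% in *H3f3a* and 2.44% in *H3f3b* occurred in other annotated genes, 14 of them for *H3f3a*, so the level of *H3f3a* from uniquely mapped reads is the less certain.

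*H3f3b* stood above the other members in every group. Per kilobase of exon union, it was at rank 1 or 2 of 20857 genes with a length in the SPG libraries, at rank 1 in every PreL library, at rank 4 in both WT LZ libraries, and at rank 16 to 31 in the SKO LZ libraries. Its rescaled values were 197054, 238870 and 226272 in WT replicates 1, 2 and 3 of SPG, 327340, 389483 and 431251 in WT replicates 1, 2 and 4 of PreL, and 111866 and 174453 in WT replicates 2 and 3 of LZ. In SKO they were 249259, 251294 and 261413 in replicates 1, 3 and 4 of SPG, 282792, 206044 and 301082 in replicates 1, 2 and 3 of PreL, and 103204, 132580 and 127647 in replicates 1, 2 and 3 of LZ. WT PreL was the peak, and every WT PreL library lay above every other library. The step from WT SPG to PreL was 0.75 (SE 0.16, limma adjusted p = 0.0244), under the fold threshold. From PreL to LZ *H3f3b* fell in both genotypes relative to all genes, with log2 fold changes of -1.59 (SE 0.28, limma adjusted p = 0.00427) in WT and -1.14 (SE 0.26, limma adjusted p = 0.00912) in SKO, whereas on the ERCC-calibrated scale the change was 0.25 in WT and -0.29 in SKO, with neither called. The SKO call also failed without SKO PreL replicate 1. The SKO to WT log2 fold changes of 0.19 (limma adjusted p = 0.327) in SPG, -0.54 (limma adjusted p = 0.142) in PreL and -0.23 (limma adjusted p = 0.591) in LZ did not pass the test, with 95% confidence intervals of -0.06 to 0.44, -1.07 to -0.01 and -1.01 to 0.55.

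In rescaled values *H3f3a* stayed within a narrower range than *H3f3b*. It was 11473, 13455 and 12864 in WT replicates 1, 2 and 3 of SPG, 10112, 11981 and 10542 in WT replicates 1, 2 and 4 of PreL, and 10077 and 12428 in WT replicates 2 and 3 of LZ. The SKO values were 10432, 11152 and 9505 in replicates 1, 3 and 4 of SPG, 9244, 9426 and 8839.8 in replicates 1, 2 and 3 of PreL, and 15266, 12951 and 14560.5 in replicates 1, 2 and 3 of LZ. Every SKO library was below the WT libraries in SPG and PreL and above them in LZ, but the log2 fold changes of -0.30 (limma adjusted p = 0.11), -0.24 (limma adjusted p = 0.195) and 0.33 (limma adjusted p = 0.172) did not pass the test. From PreL to LZ it rose in SKO by 0.60 (SE 0.12, limma adjusted p = 0.00455), under the fold threshold (1.45 on the ERCC-calibrated scale, where it was called). In WT the change was -0.10 (limma adjusted p = 0.71), and it was called higher on the ERCC-calibrated scale. On that scale the group means of *H3f3a* ran from 5707 (SKO SPG) to 28840 (SKO LZ). Those of *H3f3b* ran from 141344 (SKO SPG) to 317760 (WT LZ), so in proportion *H3f3a* ranged wider there. Per kilobase, *H3f3b* made up 95.4% ± 0.0757 of the pair in WT SPG and 97.6% ± 0.299 in WT PreL (SD, n = 3 each), 93.6% ± 0.991 in WT LZ (n = 2), and 96.6% ± 0.326, 97.0% ± 0.691 and 90.8% ± 1.78 in SKO SPG, PreL and LZ (SD, n = 3 each). These shares do not depend on the scaling of a library, and the LZ shares of both genotypes lay below all SPG and PreL shares.

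The H2A.Z genes *H2afz* (H2A.Z.1; chromosome 3, 137864487 to 137866922, plus strand) and *H2afv* (H2A.Z.2; chromosome 11, 6427229 to 6444443, minus strand) encode proteins of 128 residues that differ at 3 positions, from coding sequences that differ at 80 of 384 bases. Their first 120 coding bases hold 28 differences, in capitals, and are shown because the *H2afz* share of the pair differed between the genotypes in SPG and PreL.
H2afz: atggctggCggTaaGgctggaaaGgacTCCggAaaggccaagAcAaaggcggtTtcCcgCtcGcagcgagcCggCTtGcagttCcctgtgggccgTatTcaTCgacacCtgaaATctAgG
H2afv: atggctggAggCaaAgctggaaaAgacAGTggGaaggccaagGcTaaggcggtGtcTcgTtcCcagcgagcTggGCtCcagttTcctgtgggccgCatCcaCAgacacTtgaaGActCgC
Of the 100-base windows of *H2afz*, 58.8% also occurred in 4 other annotated genes, and 0% of those of *H2afv*, so that the level of *H2afz* is uncertain while its change between libraries rests on the same sequence.

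*H2afv* was lower in SKO than in WT in all 3 stages, by less than the fold threshold. In SPG it was 13619.8, 14156 and 15516 in WT replicates 1, 2 and 3 and 7105, 8259.9 and 7338 in SKO replicates 1, 3 and 4, a log2 fold change of -0.95 (SE 0.11, limma adjusted p = 0.000281). In PreL it was 15338, 14320 and 14172 in WT replicates 1, 2 and 4 and 9099, 9574 and 10514 in SKO replicates 1, 2 and 3, a log2 fold change of -0.58 (SE 0.12, limma adjusted p = 0.00977), which turned to 0.14 on the ERCC-calibrated scale. In LZ it was 10441 and 7942 in WT replicates 2 and 3 and 5914, 5718 and 5889 in SKO replicates 1, 2 and 3, a log2 fold change of -0.66 (SE 0.17, limma adjusted p = 0.0132). The genotypes did not overlap in any stage. In SPG *H2afv* was called on the ERCC-calibrated scale (-1.22). From PreL to LZ it changed by -0.82 (limma adjusted p = 0.012) in WT and -0.77 (limma adjusted p = 0.00137) in SKO relative to all genes, with the opposite sign on the ERCC-calibrated scale (1.01 and 0.08).

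*H2afz* was called lower in SKO LZ. In SPG its values were 21286, 20312 and 20701 in WT replicates 1, 2 and 3 and 21817, 22819 and 22319 in SKO replicates 1, 3 and 4. In PreL they were 24470.3, 21297 and 20379.6 in WT replicates 1, 2 and 4 and 24957, 22909.9 and 32532 in SKO replicates 1, 2 and 3. In LZ they were 29448 and 40624 in WT replicates 2 and 3 and 14073, 17408 and 17753 in SKO replicates 1, 2 and 3. In rescaled values both WT LZ libraries lay above all WT libraries of the earlier stages, and the SKO LZ libraries lay below all other libraries. On the ERCC-calibrated scale the SKO LZ libraries (26873.6 to 36816) lay above all SPG and all WT PreL libraries. From PreL to LZ *H2afz* changed by 0.51 (limma adjusted p = 0.0811) in WT and -0.73 (limma adjusted p = 0.0143) in SKO, neither called. On the ERCC-calibrated scale these steps were 2.345 and 0.12, the first called higher. The log2 fold change of SKO against WT in LZ was -1.10 (SE 0.22, limma adjusted p = 0.0051). It moved to -0.87, under the fold threshold, without WT LZ replicate 3, and to -0.92 without SKO LZ replicate 1. In SPG and PreL the log2 fold changes were 0.09 (limma adjusted p = 0.632) and 0.28 (limma adjusted p = 0.252), and the second was called higher on the ERCC-calibrated scale. The *H2afz* share of the pair per kilobase was 57.0% ± 1.94 in WT SPG and 73.1% ± 1.16 in SKO SPG, and 58.1% ± 1.29 in WT PreL and 71.5% ± 2.62 in SKO PreL (SD, n = 3 each), with no overlap in either stage. In LZ the shares were 77.3% ± 7.28 in WT (n = 2) and 71.9% ± 2.86 in SKO (SD, n = 3), and they overlapped. In WT the LZ shares lay above all SPG and PreL shares, while the 9 SKO libraries all lay between 68.6% and 74.0%. These shares depend on the length used, here the exon union. With the longest transcript they were higher, at 68.7% in WT SPG and 81.9% in SKO SPG, still without overlap in that stage.

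**Figure D1:**
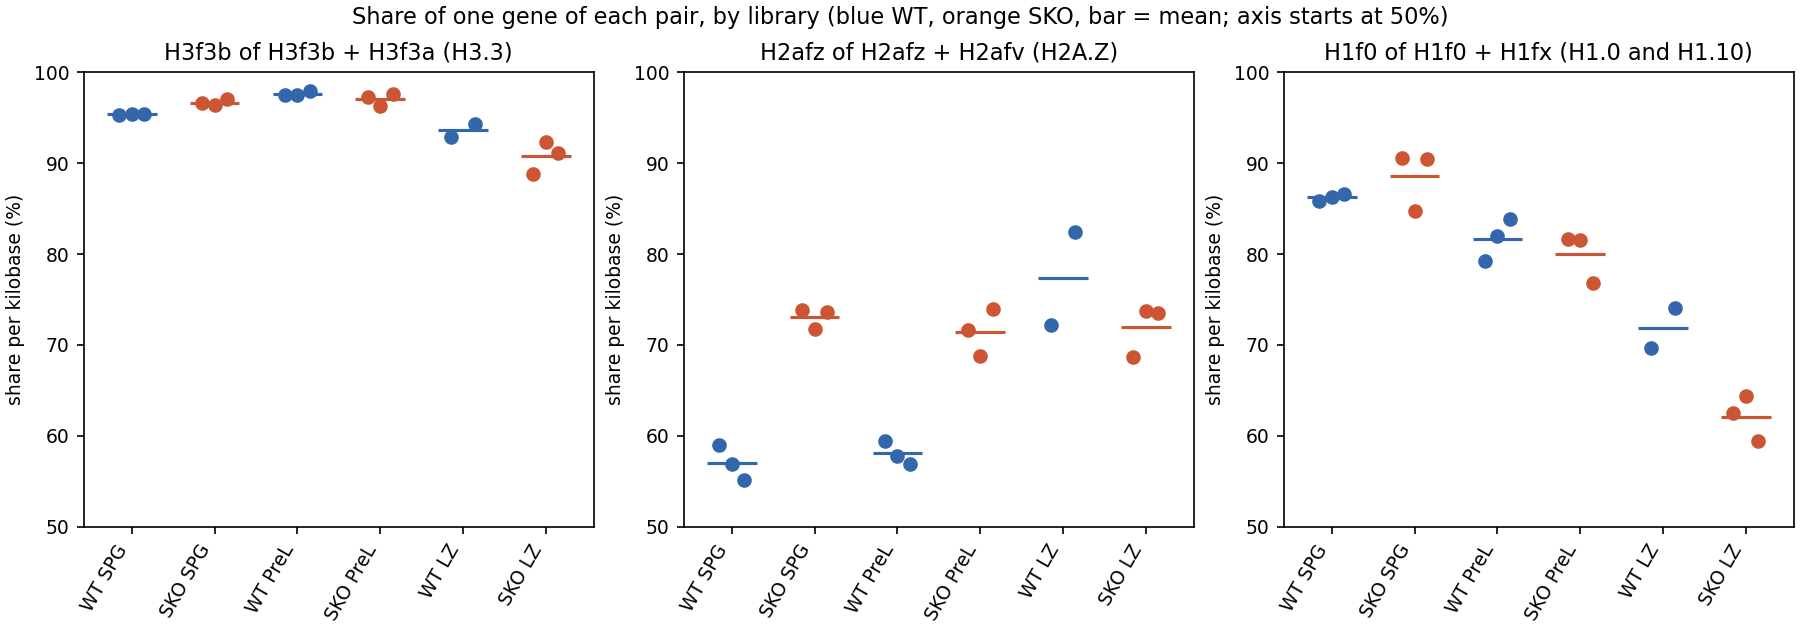
Share of the first gene of each pair in the sum of both, in percent (vertical axis, from 50%), from rescaled values per kilobase of exon union, for *H3f3b* and *H3f3a*, *H2afz* and *H2afv*, and *H1f0* and *H1fx*. Each point is a library and each bar a group mean, and the *H2afz* share was 57.0% ± 1.94 in WT SPG against 73.1% ± 1.16 in SKO SPG.

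*H2afx* (chromosome 9, 44334694 to 44336077, plus strand) has 1 coding exon and encodes H2AX, of 143 residues. Its phosphorylated serine, residue 140 counted from the initial methionine, stands before a glutamine near the C-terminal end, and no other member encodes a serine and glutamine pair in its last 5 residues. The last 36 coding bases are shown with the codons of that pair in capitals.
H2afx: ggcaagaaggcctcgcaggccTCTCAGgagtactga
*H2afx* was 308, 342 and 213 in WT replicates 1, 2 and 3 of SPG, 755, 742 and 706 in WT replicates 1, 2 and 4 of PreL, and 1384 and 1829 in WT replicates 2 and 3 of LZ. In WT it was higher at each later stage, and the ranges of the 3 stages did not overlap. The WT steps were 1.30 (SE 0.24, limma adjusted p = 0.0132) from SPG to PreL, which lost the call without WT SPG replicate 3 or WT PreL replicate 2, and 0.97 (SE 0.23, limma adjusted p = 0.0139) from PreL to LZ, just under the fold threshold.

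In SKO, *H2afx* was 146, 100.1 and 150.2 in replicates 1, 3 and 4 of SPG, 439, 545 and 668 in replicates 1, 2 and 3 of PreL, and 550.1, 432 and 481 in replicates 1, 2 and 3 of LZ. The rise from SPG to PreL was called (log2 fold change 1.98, SE 0.29, limma adjusted p = 0.00783), and from PreL to LZ the change was -0.19 (limma adjusted p = 0.492), with overlapping libraries. The call into PreL was lost with the replicate number as a block (limma adjusted p = 0.0658). Every SKO library lay below every WT library of its stage. The genotype difference was -1.04 (limma adjusted p = 0.0843) in SPG and -0.42 (limma adjusted p = 0.157) in PreL, neither past the test, the second turning to 0.29 on the ERCC-calibrated scale. In LZ it was -1.72 (SE 0.23, limma adjusted p = 0.000646), from 1606 ± 314 in WT (SD, n = 2) to 488 ± 59.4 in SKO (SD, n = 3). It kept its call under all 15 alternatives, between -1.96 and -1.52. The recovered reads ranged from 45 to 988 per library.

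*H2afy* (chromosome 13, 56073619 to 56136361, minus strand) and *H2afy2* (chromosome 10, 61738665 to 61784147, minus strand) encode the macroH2A proteins, each of 372 residues. *H2afy* was 669, 612 and 614 in WT replicates 1, 2 and 3 of SPG, 528, 913 and 539.9 in WT replicates 1, 2 and 4 of PreL, and 2485 and 2726 in WT replicates 2 and 3 of LZ. The SKO values were 1259.7, 738 and 817 in replicates 1, 3 and 4 of SPG, 749.8, 991 and 508 in replicates 1, 2 and 3 of PreL, and 1111, 1090.4 and 894 in replicates 1, 2 and 3 of LZ. The WT LZ libraries stood apart at a level that no other library reached. The WT step from PreL to LZ was 1.87 (SE 0.29, limma adjusted p = 0.00279) and the SKO step 0.47 (limma adjusted p = 0.117). The genotype difference in LZ was -1.35 (SE 0.18, limma adjusted p = 0.00063), called under all 15 alternatives, while those of SPG and PreL were 0.51 (limma adjusted p = 0.18) and 0.18 (limma adjusted p = 0.69).

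*H2afy2* was the lowest member per kilobase in every group. It had 0 to 55 reads per library, and rescaled values of 67.5 and 49.97 in WT replicates 2 and 3 and 125, 195 and 113 in SKO replicates 1, 2 and 3 of LZ. Its group means were 25.7 ± 24.4 in WT SPG, 49.6 ± 28.3 in SKO SPG, 30.4 ± 18.1 in WT PreL and 56.1 ± 42.8 in SKO PreL (SD, n = 3 each), with overlapping libraries in both stages. In LZ every SKO library was above both WT libraries. It was called higher in SKO LZ (log2 fold change 1.19, SE 0.41, limma adjusted p = 0.0444), but the call was lost in 11 of 14 alternatives, with adjusted p from 0.0331 to 0.206, while the value stayed between 0.97 and 1.35. Its exons overlap those of *Aifm2*, and Smart-seq2 reads do not mark strand, so reads of the 2 genes cannot be told apart where they overlap.

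*H2afj* (chromosome 6, 136808244 to 136810074, plus strand) encodes an H2A variant of 129 residues. In SPG its values were 1119, 1144 and 1087 in WT replicates 1, 2 and 3 and 815, 976 and 526 in SKO replicates 1, 3 and 4. In PreL they were 709, 868 and 688 in WT replicates 1, 2 and 4 and 729, 810.0 and 739 in SKO replicates 1, 2 and 3. In LZ they were 727 and 639 in WT replicates 2 and 3 and 272, 301 and 368 in SKO replicates 1, 2 and 3. In rescaled values WT SPG was highest, and all 3 SKO LZ libraries lay below all others. On the ERCC-calibrated scale WT LZ was highest (1530 ± 212, n = 2), against 752 ± 47.6 in WT SPG. There SKO LZ (638 ± 121) lay above SKO SPG (416 ± 66.5, SD, n = 3 each). The WT step from SPG to PreL was -0.60 (limma adjusted p = 0.0585), not called. The SKO LZ libraries held only 50 to 88 reads of *H2afj*. The genotype difference was -1.13 (SE 0.25, limma adjusted p = 0.00714) in LZ, called under all 15 alternatives, against -0.58 (limma adjusted p = 0.115) in SPG and 0.02 (limma adjusted p = 0.941) in PreL. In SKO it fell from PreL to LZ, with a log2 fold change of -1.30 (SE 0.17, limma adjusted p = 0.000574), which was -0.46 and not called on the ERCC-calibrated scale, and in WT the change was -0.28 (limma adjusted p = 0.423).

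The linker histone genes *H1f0* (H1.0; chromosome 15, 79028450 to 79030504, plus strand) and *H1fx* (H1X; chromosome 6, 87980421 to 87981637, minus strand) rose at meiotic entry in WT. *H1f0* was 1549, 1337 and 1531 in WT replicates 1, 2 and 3 of SPG, 4046, 3794 and 2852 in WT replicates 1, 2 and 4 of PreL, and 917 and 1739.7 in WT replicates 2 and 3 of LZ. In SKO it was 1498, 1147 and 899 in replicates 1, 3 and 4 of SPG, 1754, 2153 and 2393 in replicates 1, 2 and 3 of PreL, and 1519, 1221 and 1459 in replicates 1, 2 and 3 of LZ. PreL was the peak in both genotypes, and every SKO PreL library lay below every WT PreL library. The WT step into PreL was 1.22 (SE 0.16, limma adjusted p = 0.00417), and the step out of it -1.61 (SE 0.28, limma adjusted p = 0.00406), which turned to 0.21 on the ERCC-calibrated scale. In SKO the steps were 0.86 (limma adjusted p = 0.0364) and -0.61 (limma adjusted p = 0.0169), both under the fold threshold, the second turning to 0.24 on the ERCC-calibrated scale. The genotype difference in PreL was -0.75 (SE 0.17, limma adjusted p = 0.0174), under the fold threshold, and -0.03 on the ERCC-calibrated scale.

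*H1fx* was 152, 126 and 139.7 in WT replicates 1, 2 and 3 of SPG, 629, 494 and 326 in WT replicates 1, 2 and 4 of PreL, and 236 and 361 in WT replicates 2 and 3 of LZ. In SKO it was 92.1, 122 and 55.9 in replicates 1, 3 and 4 of SPG, 234, 288 and 429 in replicates 1, 2 and 3 of PreL, and 539, 400.1 and 589 in replicates 1, 2 and 3 of LZ. In rescaled values SPG was lowest in both genotypes, and the highest group was PreL in WT and LZ in SKO. On the ERCC-calibrated scale LZ was highest in both, at 663 ± 165 in WT (n = 2) and 1030 ± 191 in SKO (SD, n = 3). The step into PreL was 1.61 (SE 0.31, limma adjusted p = 0.0147) in WT and 1.71 (SE 0.38, limma adjusted p = 0.0333) in SKO. The WT call was lost in 3 of 16 alternatives, without WT SPG replicate 3, without WT PreL replicate 2 and without the filter on low values, and the SKO call in 8 of 16. In LZ *H1fx* was above WT in all SKO libraries (log2 fold change 0.76, limma adjusted p = 0.075), a difference that did not reach significance. Per kilobase, *H1f0* made up 86.2% ± 0.418 of the pair in WT SPG and 88.6% ± 3.35 in SKO SPG, 81.7% ± 2.33 and 80.0% ± 2.79 in PreL (SD, n = 3 each), and 71.9% ± 3.09 in WT LZ (n = 2) and 62.1% ± 2.5 in SKO LZ (SD, n = 3). In LZ the genotypes did not overlap in this share.

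**Figure D2:**
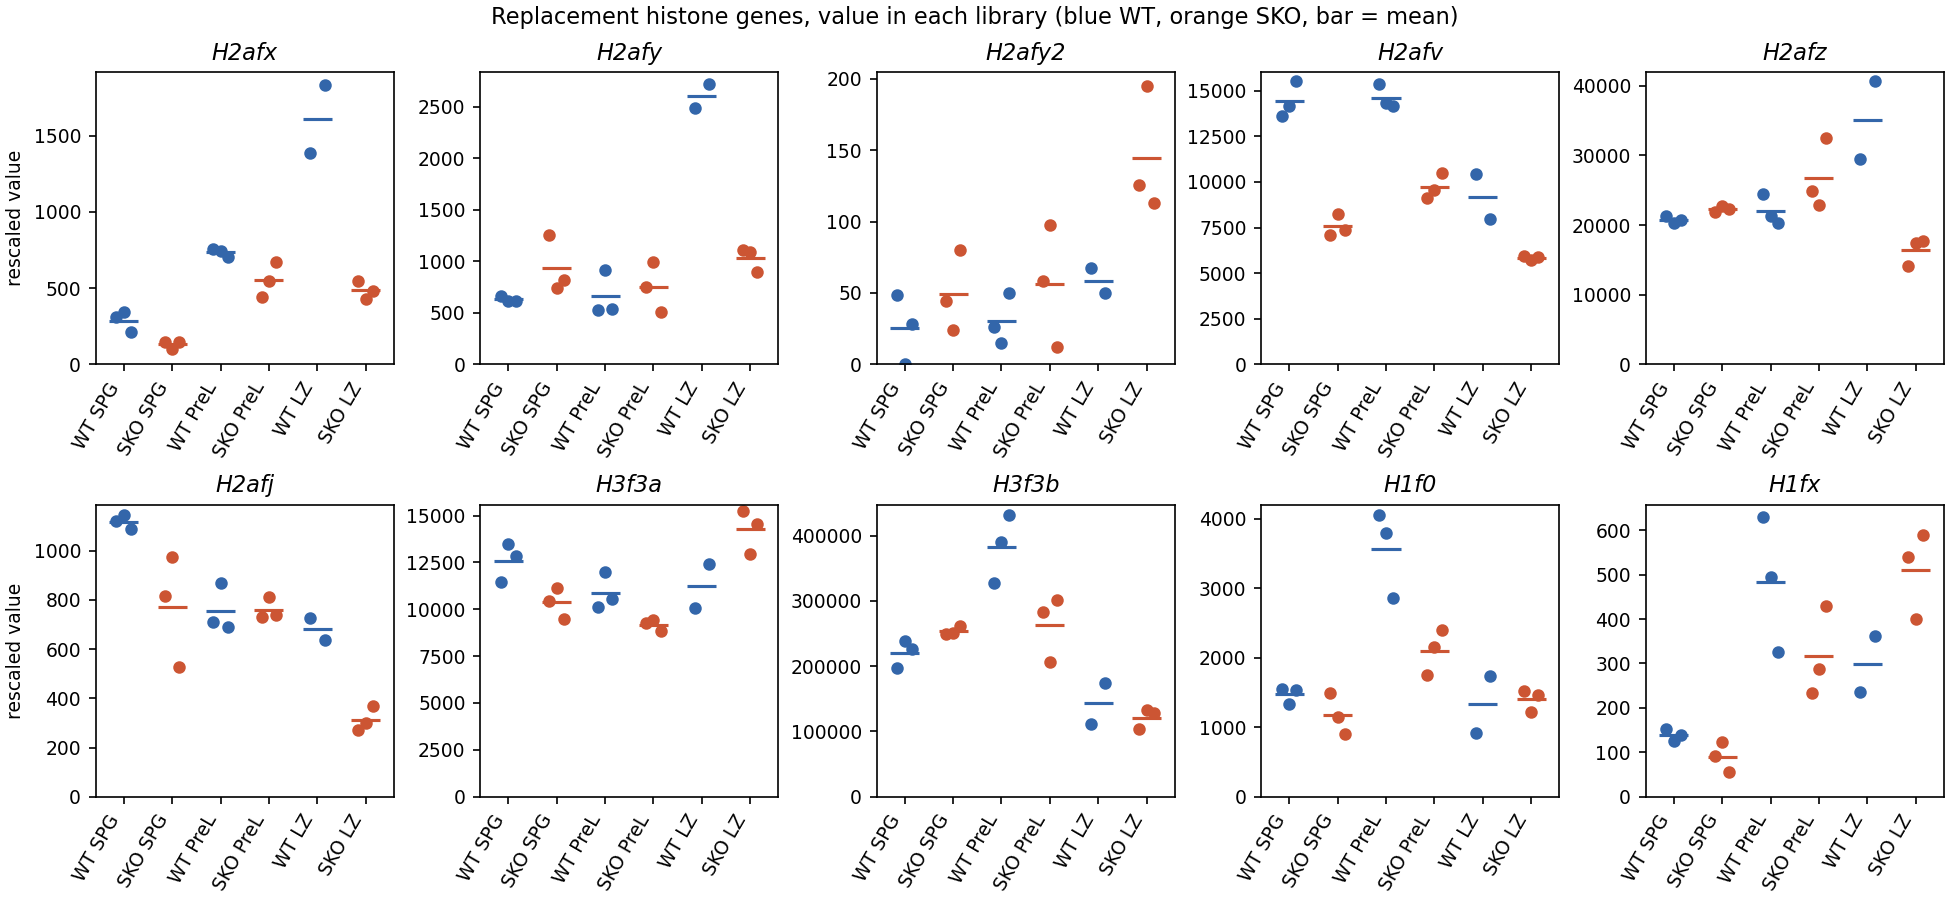
Rescaled value (vertical axis, linear, from 0) of each of the 10 genes in each library, by group along the horizontal axis, with group means as bars. *H2afx*, *H2afy* and *H2afz* were highest in WT LZ, whereas *H3f3b* and *H1f0* were highest in WT PreL.

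The members kept much of their order across the groups. In WT SPG the rescaled values per kilobase were *H3f3b* (74171 ± 7208 per kb), *H2afz* (11693 ± 276), *H2afv* (8837 ± 599), *H3f3a* (3595 ± 290.3), *H1f0* (716 ± 57.4), *H2afj* (609.9 ± 15.7), *H2afx* (208 ± 48.3), *H1fx* (114 ± 10.4), *H2afy* (92.8 ± 4.76) and *H2afy2* (11.8 ± 11.2), each SD with n = 3 and no neighbours overlapping. *H2afx* stood at place 7 in WT SPG, at place 6 in WT PreL, 5 in WT LZ and 7 in SKO LZ. The libraries of neighbours in the order overlapped for *H2afj* and *H1fx* in WT PreL, *H2afy* and *H2afj* in WT LZ and SKO LZ, *H1f0* and *H2afj* as well as *H2afy* and *H2afx* in SKO SPG, *H2afj* and *H2afx* in SKO PreL, and *H2afx* and *H1fx* in all SKO stages. In SKO LZ, *H3f3a* stood above *H2afv*, the reverse of the other 5 groups. The level of *H2afy* depends on the length used, since its exon union of 6809 bases is longer than its longest coding transcript of 2046. Exons of *H2afx*, *H2afy*, *H2afj*, *H3f3a*, *H1f0* and *H1fx* also overlap those of other annotated genes, and without strand their reads cannot be told apart there.

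Between the genotypes, 0 of 10 members were called in SPG, where 2.06% of 12846 genes tested were called lower and 3.95% higher. The median log2 fold change was -0.33 for the members and 0.00 for all genes. At an unadjusted p under 0.05, 5 members passed in limma. *H2afv* and *H2afx* were called lower on the ERCC-calibrated scale, and 1 member, *H2afv*, passed an adjusted p of 0.05 without the fold threshold. In PreL 0 of 10 members were called, against 5.83% of 13132 genes lower and 5.32% higher, with medians of -0.33 and 0.04, and 3 members passed in limma at an unadjusted p under 0.05. *H2afz* was the 1 member called in PreL on the ERCC-calibrated scale, toward higher. Without the fold threshold 2 members, *H2afv* and *H1f0*, passed in PreL. edgeR and DESeq2 on the recovered reads also called 0 members in both stages.

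In LZ, 4 of 10 members were called lower in SKO, *H2afx*, *H2afy*, *H2afz* and *H2afj*, and 1, *H2afy2*, higher. Over all 13724 genes 25.8% were lower and 13.4% higher, and the median log2 fold change was -0.44 for the members and -0.13 for all genes. The 4 lower members were H2A variants, as was *H2afy2*, called higher. The 5 not called were the H3.3 and H1 genes and *H2afv*, also an H2A variant. The 4 lower members were called lower on the ERCC-calibrated scale, with TMM factors, with edgeR and with DESeq2 as well. With the replicate number as a block 3 members were called lower and 0 higher, since *H2afz* lay at -0.997, not past the fold threshold. The marker sums of late spermatocytes, spermatids and Leydig cells given above separated the same libraries, those of Leydig cells toward higher in SKO. Their part in the result was not tested.

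**Figure D3:**
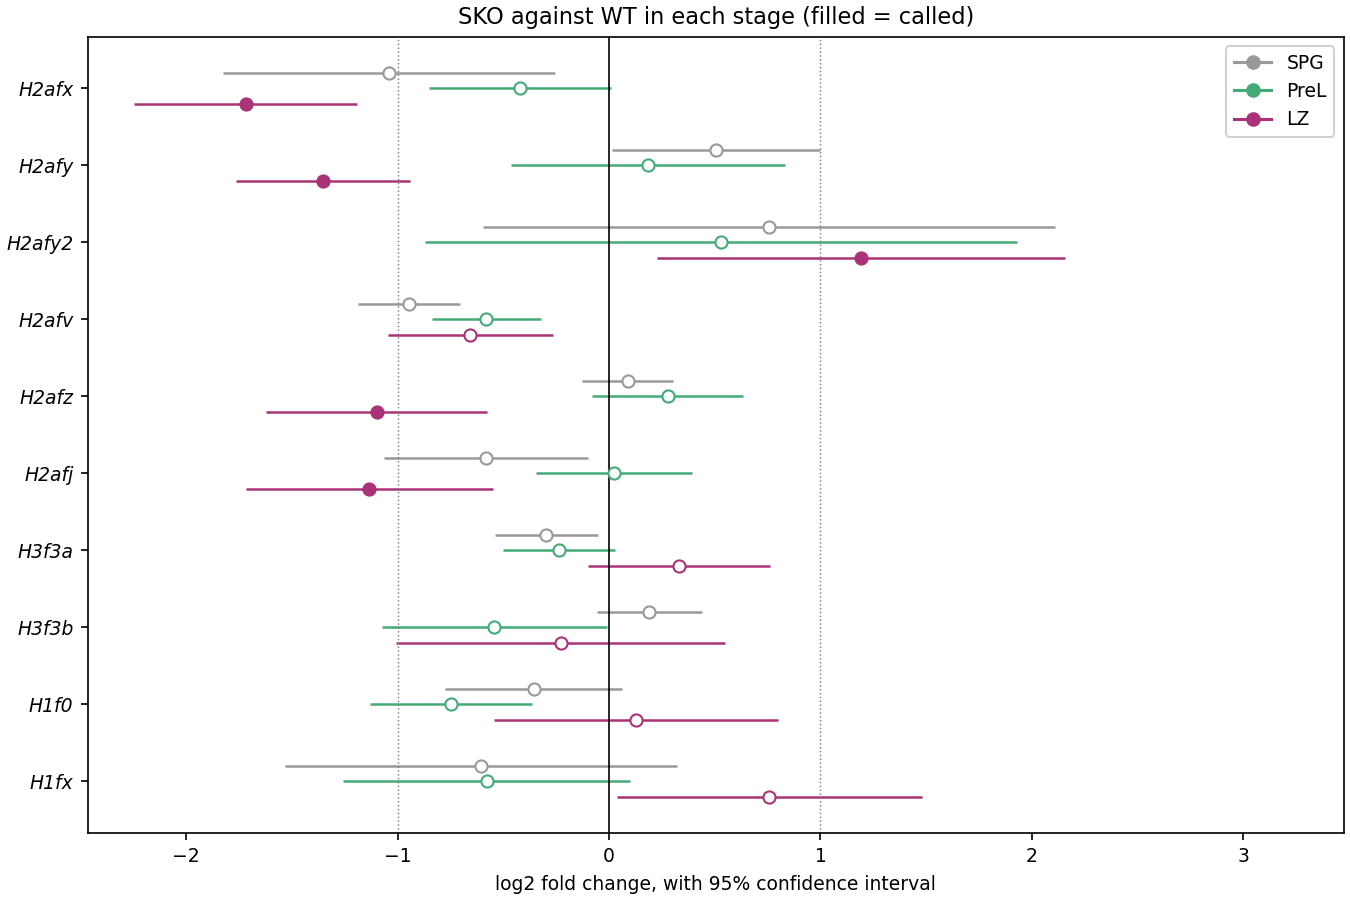
log2 fold change of SKO against WT for each gene in SPG, PreL and LZ, with 95% confidence intervals from limma. Filled points were called, dotted lines mark the fold threshold, and in LZ *H2afx* lay at -1.72 and *H2afy2* at 1.19.

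Along the stages of WT, 3 members, *H2afx*, *H1f0* and *H1fx*, were called higher in PreL than in SPG and 0 lower, against 2.54% and 1.21% of 12657 genes. The late spermatocyte, spermatid and Sertoli cell marker sums given above were higher after this step too, without overlap. Those of late spermatocytes, Sertoli cells and Leydig cells were higher after the next, also without overlap. Their part in the results was not tested. From PreL to LZ in WT, 2 members, *H3f3b* and *H1f0*, were called lower and 1, *H2afy*, higher, against 7.8% and 18.8% of 13759 genes. On the ERCC-calibrated scale, where the median of all genes shifted up by 1.73, 7 members were called higher and 0 lower. In SKO, 2 members, *H2afx* and *H1fx*, were called higher in PreL than in SPG and 0 lower, against 1.63% and 0.955% of 12882 genes. The ERCC-calibrated scale gave 7 members higher at this SKO step, and with the replicate block 0 were called. From PreL to LZ in SKO, 2 members, *H2afj* and *H3f3b*, were called lower and 0 higher, against 6.93% and 10.6% of 12477 genes. The ERCC-calibrated scale gave 4 members higher at this step and 0 lower. The WT and SKO steps share no library with each other, but the 2 steps of a genotype share its PreL libraries.

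**Figure D4:**
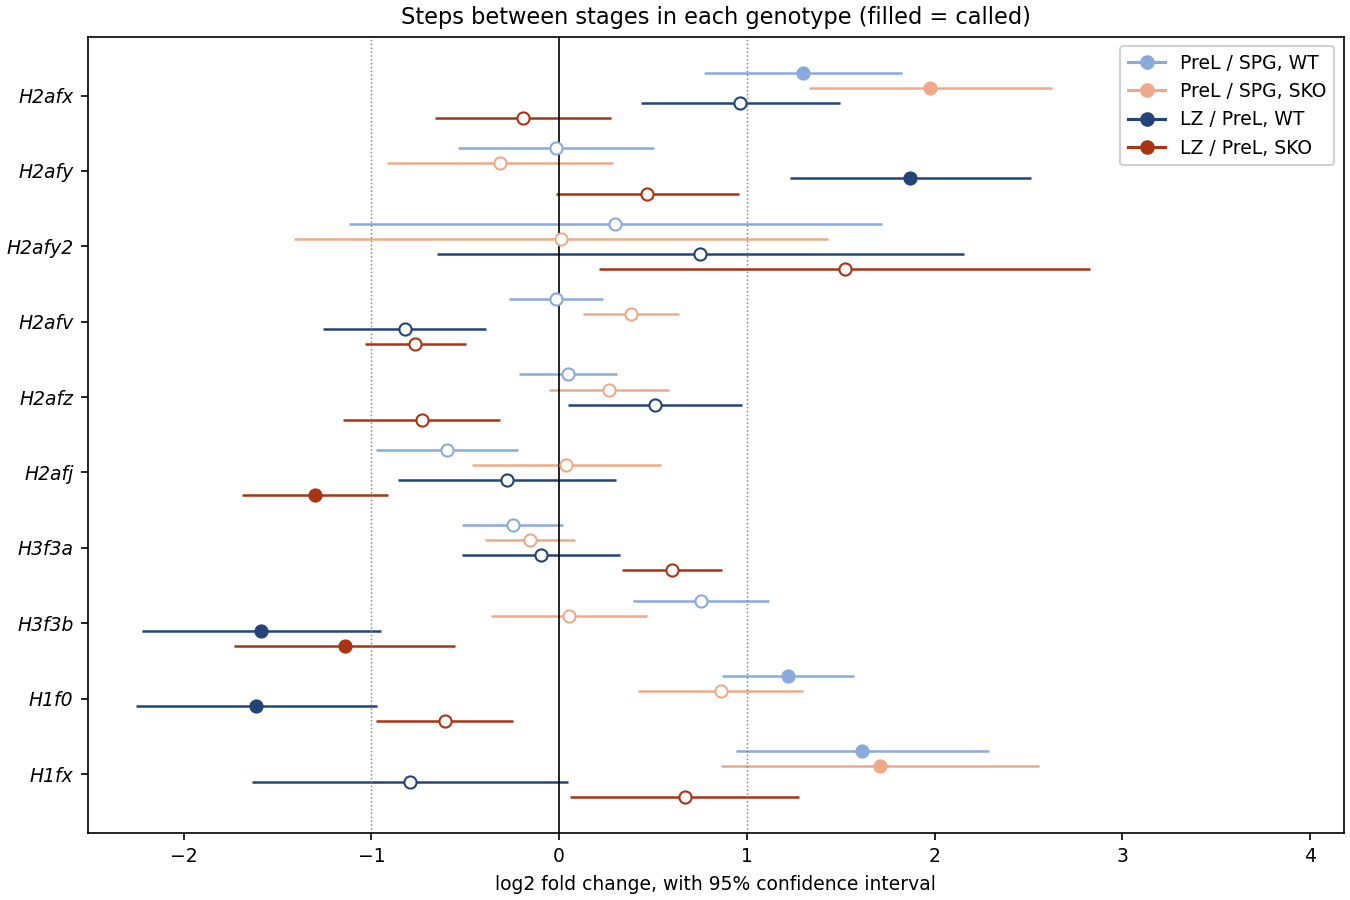
log2 fold change from SPG to PreL and from PreL to LZ, in WT and in SKO, for each gene, with 95% confidence intervals from limma. Filled points were called, and *H2afy* rose by 1.87 from PreL to LZ in WT against 0.47 in SKO.

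The difference between the genotype effects of 2 stages was tested with an interaction term over all 17 libraries, called at an adjusted p under 0.05 alone. Between SPG and PreL, 0 of 10 members were called, against 0.111% of 13530 genes lower and 0.251% higher, and 1 member passed in limma at an unadjusted p under 0.05. edgeR and DESeq2 also called 0. On the ERCC-calibrated scale, where the median of all genes shifted by 0.95, 5 were called higher. Between PreL and LZ, 7 of 10 were called, 4 toward lower in LZ and 3 toward higher, against 23.1% and 15.1% of genes. The lower ones were *H2afy* (difference -1.51, SE 0.37, limma adjusted p = 0.00364), *H2afz* (difference -1.35, SE 0.22, limma adjusted p = 0.000123), *H2afx* (difference -1.27, SE 0.36, limma adjusted p = 0.00926) and *H2afj* (difference -1.12, SE 0.31, limma adjusted p = 0.00786). The higher ones were *H1fx* (difference 1.35, SE 0.50, limma adjusted p = 0.0391), *H1f0* (difference 0.90, SE 0.33, limma adjusted p = 0.0365) and *H3f3a* (difference 0.59, SE 0.18, limma adjusted p = 0.015). The median difference over all genes was -0.31. The ERCC-calibrated scale gave 5 members lower, the 4 above and *H2afv*, and 0 higher, and *H3f3a* turned to -0.28. Without WT LZ replicate 2 the 4 lower members were called and the 3 higher ones were not, and without WT LZ replicate 3 *H2afx* was not. *H1f0* and *H1fx* each lost the call in 9 of 26 alternatives.

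Of the 10 genes of H3.3 deposition, the chaperones and their partners, 0 were called between genotypes in SPG and PreL by limma, with 1 and 2 at an unadjusted p under 0.05. In LZ 1 was called lower, *Daxx*, which encodes the H3.3 chaperone of heterochromatin (log2 fold change -1.53, SE 0.21, limma adjusted p = 0.000776, from 1669.8 ± 285 in WT, n = 2, to 578 ± 60.6 in SKO, SD, n = 3), and 0 higher. In LZ 4 of the 10 passed an adjusted p under 0.05 in limma, *Daxx* and 3 under the fold threshold, named here after their values were seen. *Atrx* (log2 fold change 0.97, limma adjusted p = 0.00836) and *Dek* (0.70, limma adjusted p = 0.0323) were higher in SKO. *Asf1b* (-0.92, limma adjusted p = 0.00373) was lower. The list's median in LZ was 0.11, against -0.13 over all genes, of which 25.8% were called lower and 13.4% higher.

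Of 16 listed genes of H2A.Z exchange 15 were in the table, and in LZ 5 were called lower and 2 higher, with a median of -0.43. These counts are near the 25.8% and 13.4% of all genes, so the genes below are single values and no result about the list. The lower ones were *Vps72*, an SRCAP subunit that binds H2A.Z (named after its value was seen, log2 fold change -1.07, limma adjusted p = 0.0353, a call lost in 5 of 15 alternatives), *Znhit1*, a subunit of the SRCAP complex (log2 fold change -3.25, SE 0.43, limma adjusted p = 0.000657), the AAA+ ATPase gene *Ruvbl2* (log2 fold change -2.38, SE 0.27, limma adjusted p = 0.000348), *Dmap1*, of the same complexes (log2 fold change -1.94, SE 0.21, limma adjusted p = 0.000272) and *Kat5*, the acetyltransferase of the p400 complex (log2 fold change -1.72, SE 0.33, limma adjusted p = 0.00408). The higher ones were *Brd8*, another p400 subunit (log2 fold change 3.43, SE 0.27, limma adjusted p = 7.41e-05), and *Anp32e*, a chaperone that removes H2A.Z (log2 fold change 1.78, SE 0.15, limma adjusted p = 9.25e-05). *Brd8* was 5989 ± 1227 in WT LZ (n = 2) and 66093 ± 16699.6 in SKO LZ (SD, n = 3). *Znhit1*, *Ruvbl2*, *Dmap1*, *Kat5*, *Brd8* and *Anp32e* kept their direction and their call in all 15 alternatives. In SPG 1 gene, *Kat5*, was called higher (log2 fold change 1.14, limma adjusted p = 0.0453), a call lost in 12 of 16 alternatives, and in PreL 1, *Trrap*, a large scaffold of the p400 complex, was higher (log2 fold change 1.35, limma adjusted p = 0.00302).

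Of the 12 genes of H2AX phosphorylation and its readers, 11 were tested, and 1 was called in LZ, *Rnf168*, a ubiquitin ligase that acts on chromatin around breaks. It was higher in SKO (log2 fold change 3.42, SE 0.27, limma adjusted p = 7.14e-05, from 1795 ± 561 in WT, n = 2, to 19296 ± 4233 in SKO, SD, n = 3). The kinases *Atm*, *Atr* and *Prkdc* were not called between the genotypes in any stage, and by limma 0 of the 11 were called in SPG or PreL, with 0 and 4 at an unadjusted p under 0.05. In LZ 6 of the 11 passed an adjusted p under 0.05 in limma. There *Atm* was higher in SKO (2452 ± 229 in WT, n = 2, 3883 ± 135 in SKO, SD, n = 3). *Atr* was lower (13922 ± 4710 and 7630 ± 970), both without overlap, and *Prkdc* overlapped. The interaction of LZ and PreL called 1 of the 11 lower, *Atr*, and 4 higher, *Atm* among them, against 23.1% and 15.1% of all genes. The list's median in LZ was 0.19, against -0.13 over all genes, of which 25.8% were called lower and 13.4% higher.

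Of the 10 genes of replication-coupled histone supply, 2 were called lower and 2 higher in SKO LZ, with a median of -0.05, and these counts too are near the shares over all genes (25.8% and 13.4%). *Chaf1a*, the large subunit of the CAF-1 chaperone, was called lower in PreL (log2 fold change -1.27, SE 0.16, limma adjusted p = 0.00125) and in LZ (log2 fold change -1.87, SE 0.26, limma adjusted p = 0.000821), and the PreL call was lost on the ERCC-calibrated scale. *Chaf1b*, its partner subunit and named here after its value was seen, was the other lower gene (log2 fold change -1.87, limma adjusted p = 0.00301). *Lsm11*, of the U7 particle that cuts histone transcripts, was higher (log2 fold change 1.72, SE 0.26, limma adjusted p = 0.00126), as was *Mcm2*, a subunit of the replicative helicase (log2 fold change 1.02, SE 0.17, limma adjusted p = 0.00223), whose call was lost in 3 of 15 alternatives.

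Of the 11 listed testis and centromere histone variants, 8 were in the table, 7 were tested in SPG and 6 in PreL and LZ. *Hils1*, *H1fnt* and *H2afb1*, variants made in the testis, were called lower in SKO PreL and LZ. The spermatid marker sums given above were also lower in SKO in every stage, without overlap. Their part in the values of these 3 genes was not tested. Over all genes, 2.06% were called lower in SPG, 5.83% in PreL (5.32% higher) and 25.8% in LZ. In SPG *Hils1* was already called lower (0 reads in all 3 SKO libraries, against a rescaled value of 127 ± 72.9 in WT, SD, n = 3, limma adjusted p = 0.00404). So was *H2afb1* (log2 fold change -2.49, limma adjusted p = 0.00941, a call lost in edgeR), and *H1fnt* was not (log2 fold change -1.95, limma adjusted p = 0.0959). *H1fnt* and *H2afb1* had a mean under 100 reads and are named here after their values were seen. In SKO LZ all 3 were at 0 reads in every library, against rescaled values of 931 ± 348, 369 ± 197 and 325 ± 79.8 in WT LZ (n = 2). *Cenpa*, the centromeric H3 variant, was 8812 ± 547 in WT SPG and 2155 ± 386 in WT PreL, and 4883 ± 552 in SKO SPG and 6452 ± 677 in SKO PreL (SD, n = 3 each). It was called higher in SKO PreL (log2 fold change 1.59, SE 0.15, limma adjusted p = 0.000215), and its genotype effects of PreL and SPG differed by 2.44 (SE 0.20, limma adjusted p = 2.79e-06).

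The genes whose log2 values over the 17 libraries were most like a member's were found among 8666 genes (mean reads 100 or more), with no test and with libraries of unequal depth. For *H3f3b* they were *Vps29*, *Selk* and *Stra8* (Pearson r of 0.969, 0.953 and 0.938), for *H2afx* *Mtfr1*, *Pbk* and *Syce3* (0.955, 0.951 and 0.939), and for *H2afz* *Chchd6*, *Xpo6* and *Eif3g* (0.950, 0.937 and 0.928). For *H2afy* they were *Art3*, *Ppp3ca* and *Gtf2i* (0.912, 0.903 and 0.902), for *H2afv* *Uqcr11*, *BC125332* and *Mrps17* (0.921, 0.921 and 0.902), and for *H2afj* *Derl2*, *Tomm6* and *Ndufb9* (0.924, 0.920 and 0.908). For *H3f3a* they were *Tpt1*, *Rps13* and *Nsa2* (0.927, 0.926 and 0.911), and for *H1fx* *Mat2a*, *Top2a* and *Srsf7* (0.931, 0.923 and 0.919). No member was among the 3 most alike of another member. *H2afy2* had too few reads to be compared.

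RefSeq promoters of GRCm38 were at hand for 9 of the 10 members, and the 250 bases before the start site were searched on both strands. CCAAT was found in 5 of 9 (34.5% of 27025 promoters), GGGCGG in 6 (32.9%), TATAA in 1 (23.5%), TGACG in 1 (17.9%), TTTNGCGC in 0 (1.15%) and AACNG in 8 (74.1%), and no searched motif contains another. Both the TATAA and the TGACG matches were in *H3f3b*. The upstream bases are shown for *H3f3b*, the most abundant member, and for *H2afz* and *H2afj*, of the genes called lower in SKO LZ, with each CCAAT or its reverse complement ATTGG in capitals, 5′ to 3′ on the strand of the gene. They lie at chr11:116024505-116024754 (minus strand), chr3:137864237-137864486 (plus strand) and chr6:136807998-136808247 (plus strand).
H3f3b: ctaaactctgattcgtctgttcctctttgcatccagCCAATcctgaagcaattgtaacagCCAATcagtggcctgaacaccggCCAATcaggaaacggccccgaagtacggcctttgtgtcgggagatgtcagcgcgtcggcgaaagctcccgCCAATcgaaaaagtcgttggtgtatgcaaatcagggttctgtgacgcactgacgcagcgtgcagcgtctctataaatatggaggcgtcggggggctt
H2afz: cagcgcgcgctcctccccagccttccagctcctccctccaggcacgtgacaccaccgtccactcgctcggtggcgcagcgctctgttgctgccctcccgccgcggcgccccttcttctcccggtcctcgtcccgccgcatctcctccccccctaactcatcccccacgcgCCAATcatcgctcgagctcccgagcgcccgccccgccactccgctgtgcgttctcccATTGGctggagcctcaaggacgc
H2afj: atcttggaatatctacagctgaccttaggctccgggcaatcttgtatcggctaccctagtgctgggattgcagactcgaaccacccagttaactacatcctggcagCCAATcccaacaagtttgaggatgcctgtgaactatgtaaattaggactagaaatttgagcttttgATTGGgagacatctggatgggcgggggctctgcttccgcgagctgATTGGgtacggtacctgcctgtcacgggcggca
*H3f3b* held 4 matches of CCAAT, *H2afz* 2 and *H2afj* 3, while *H2afy*, also called lower in SKO LZ, held 0. A match is only these letters in this window.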

How the data were processed

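RNA of 17 libraries of FACS-sorted SPG, PreL and LZ from WT and *Nat10*-SKO testes was measured by Smart-seq2 with ERCC spike-in. The authors mapped reads to mm10 (GRCm38), kept uniquely mapped reads, counted them per gene and deposited the counts multiplied by a spike-in and cell-input factor, a calibrated signal. The submitters' processing notes name TopHat2 2.1.1, Cufflinks 2.2.1, HTSeq 0.11.2 and DESeq2. Dividing each library by its step size gave whole reads for 100% of values (within 0.001 reads), 5812380 to 13820953 per library. Lower depth makes low genes less precise.

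Rescaling used size factors (median of ratios) of the libraries compared. Genes averaging 10 reads or more in those libraries were tested on log2(value + 10) with limma 3.58.1 in R 4.3.3 (trend, Benjamini-Hochberg over all genes tested), within the groups compared or, for differences between stages, over all 17 libraries. Calls needed an adjusted p under 0.05 and, between 2 groups, an absolute log2 fold change above 1. Alternatives were the deposited scale, TMM factors, a pseudocount of 1 or of 50, the filter dropped or raised to 50 reads, edgeR 4.0.16 and DESeq2 1.42.0 on the recovered reads, 1 fit over all libraries, the replicate number as a block, no fold threshold, and each library left out. The limma script was tested on simulated data. All 10 genes are described. Of partner lists, called genes averaging 100 reads or more were named, up to 6 by fold change, as were the 3 genes most like each member (those of *H1f0* are not reported here). The genes and lists were chosen with earlier results of these data known. Lengths and coding sequences came from the GENCODE vM21 annotation of GRCm38, and promoters from RefSeq.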

Additional observations from a re-analysis of the deposited data

Results flagged for a closer look

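The SKO to WT effect of LZ differed from that of PreL, by the interaction term of limma over the 17 libraries, for 7 of the 10 genes, 4 toward lower and 3 toward higher in LZ, against 23.1% and 15.1% of all genes, whose median difference was -0.31. On the log2 scale the difference (LZ minus PreL) was -1.51 for *H2afy* (adjusted p = 0.00364), -1.35 for *H2afz* (adjusted p = 0.000123), -1.27 for *H2afx* (adjusted p = 0.00926) and -1.12 for *H2afj* (adjusted p = 0.00786). For these 4 genes every SKO library of LZ lay below both WT libraries, which are the libraries behind the calls, so this is no separate result. The share of all genes that lay apart in this way was not counted. It was 1.35 for *H1fx* (adjusted p = 0.0391), 0.90 for *H1f0* (adjusted p = 0.0365) and 0.59 for *H3f3a* (adjusted p = 0.015). None of these 3 was called on the ERCC-calibrated scale, where *H1fx* lay at 0.51, *H1f0* at 0.03 and *H3f3a* at -0.28, or without WT LZ replicate 2. The late spermatocyte and spermatid marker sums, lower in SKO, and the Leydig cell marker sums, higher in SKO, separated the genotypes in both stages. Their part in these differences was not tested.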

How the results depend on the processing

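The count of members called moved most with the scale. On the ERCC-calibrated scale it was 2 in place of 0 for SKO against WT in SPG, 1 in place of 0 in PreL, 7 in place of 3 from PreL to LZ in WT, 7 in place of 2 from SPG to PreL in SKO, 4 in place of 2 from PreL to LZ in SKO, and 5 in place of 0 for the difference of the genotype effects of PreL and SPG. Without the fold threshold it was 1 in SPG, 2 in PreL, 5 from PreL to LZ in WT and 6 in SKO. With 1 fit over all 17 libraries it was 1 in SPG, and without the filter on low values 1 from SPG to PreL in SKO. Leaving out each library in turn gave 0 to 1 members in SPG, 0 in PreL, 3 to 4 in LZ, 1 to 3 from SPG to PreL and 3 to 5 from PreL to LZ in WT, 1 to 2 and 1 to 3 for the same steps in SKO, and 0 and 4 to 7 for the 2 differences. Signs turned on the ERCC-calibrated scale for *H2afx* (0.29) and *H2afv* (0.14) in SKO against WT PreL, for *H2afv* (1.01), *H3f3b* (0.25) and *H1f0* (0.21) from PreL to LZ in WT, for *H2afv* (0.084), *H2afz* (0.12) and *H1f0* (0.24) at that step in SKO, and for *H3f3a* (-0.28) in the difference of LZ and PreL. Signs were compared only for changes with a main adjusted p under 0.05 in limma and a few others. Among these, none changed sign under the other alternatives. Not among them were *H2afj* and *H3f3a* from PreL to LZ in WT (-0.28 and -0.10), both called higher on the ERCC-calibrated scale. Over genes, the deviations of same-numbered libraries from their group means had correlations of -0.188 to 0.131. With so few libraries per group these deviations are tied to each other, so whether the replicate numbers mark pairs cannot be told from them. With the block, 1 member was called in PreL (*H1fx*), 3 in LZ and 0 from SPG to PreL in SKO (*H2afx* 2.08), and no paired analysis was possible for PreL to LZ in WT, where the stages share 1 number. The longest coding transcript as the length, chosen after seeing the data, raised the level per kilobase of *H2afy* most. The cause of these changes was not tested. Depth limits *H2afy2*, with 0 to 55 reads per library, and *H2afj* in SKO LZ, with 50 to 88.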

Other observations

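The share of all reads taken by the 10 genes was on average 1.27% in WT and 1.39% in SKO SPG, 1.94% and 1.46% in PreL, and 0.911% and 0.559% in LZ. *H3f3b* alone took most of it, 1.03% and 1.18%, 1.7% and 1.23%, and 0.633% and 0.42% in the same groups. Over the 17 libraries, of unequal depth, the rescaled log2 values of *H2afv* and *H2afj* had a Pearson r of 0.77, those of *H2afx* and *H1fx* 0.72, and those of *H3f3b* and *H2afy* -0.61, given as descriptions. *Cenpa*, which encodes the centromeric H3 variant, fell from SPG to PreL in WT, with a log2 fold change of -2.07 (SE 0.15, limma adjusted p = 9.53e-05) and changed by 0.42 (limma adjusted p = 0.0896) in SKO.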
